A study of Mus musculus with 14 samples.

Results

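The 32 genes described here encode enzymes and carriers of fatty acid beta-oxidation in mitochondria and peroxisomes. They were chosen as the genes named alone by at least 1 probe set, in the platform's annotation, from a list of 35 gene symbols. They are 32 of 12393 genes so named on the array and were measured by 52 of its 22690 probe sets. Acsl1, Acsl3 and Cpt1b had no probe set that named them alone, and they are not analysed here. Of the 32 genes, 19 act in mitochondria, 8 in peroxisomes and 2, Ech1 and Eci2, in both compartments. Acsl4 and Acsl5 activate fatty acids for several uses, and Pdk4 is a kinase that restrains the use of pyruvate. The samples were whole inguinal mammary glands (number 4), with the lymph nodes taken out, of untreated female CD1 mice, an outbred stock, during puberty. Groups were 3, 4, 5, 6 and 7 weeks of age, with 3 Affymetrix arrays each and 2 at 5 weeks. Each array held RNA pooled from at least 3 mice. The labels do not say whether pools of an age shared mice, and p-values therefore reflect how pools, not mice, varied. The labels name no engineered allele and no agent for any group.

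Beta-oxidation shortens fatty acids by repeated rounds of dehydrogenation, hydration, a further dehydrogenation and thiolysis, with acetyl-CoA as the product. Mitochondria take up long-chain fatty acids as carnitine esters and pass the electrons to the respiratory chain through the electron transfer flavoprotein. Peroxisomes start on very-long-chain and branched fatty acids with oxidases that make hydrogen peroxide, and hand the shortened chains on. The mammary gland at these ages is mostly a pad of fat cells into which the epithelial ducts grow. In such whole glands, fewer cells of a type and less RNA per cell cannot be told apart.

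The authors' deposited values are ratios of each probe set's signal to the median of that probe set, so a value of 1 is the gene's middle array and values of different genes give no order of their levels. Ratios were averaged over a gene's probe sets on the log2 scale and fitted with limma over all 14 arrays and 10807 genes. A gene was called at a Benjamini-Hochberg adjusted p under 0.05 over all genes tested.

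Most genes of the mitochondrial pathway had lower ratios at 5 to 7 weeks than at 3 and 4 weeks. The mean log2 ratio of the peroxisomal genes was above 0 on every array of 3, 4 and 7 weeks and below 0 on every array of 5 and 6 weeks. At 7 weeks that mean did not describe each gene. Decr2 and Acox3, neither of them called in any comparison, had mean ratios of 1.55 and 1.44. Acaa1a, Hsd17b4 and Crot averaged 1.06, 1.04 and 1.02, and Scp2, Pex11a and Ehhadh 0.934, 0.906 and 0.817. In the test of any difference over the 5 ages, 11 of the 32 genes passed, where 10.4% of all genes tested did. They were 9 of the 19 mitochondrial genes, namely Acaa2, Acadvl, Eci1, Etfdh, Etfa, Acadm, Etfb, Cpt2 and Echs1, with Ech1 and 1 of the 8 peroxisomal genes, Ehhadh. At 7 weeks against 3 weeks, 13 of the 32 genes fell and 0 rose, where 2.92% of all genes fell and 6.90% rose. The count of 13 became 8 without 7wk array B and 8 without 7wk array C. It became 7 with the mean log2 ratio of the hybridisation spikes, control RNAs added to each array, as a covariate, where Acadm, Cpt2, Ech1, Echs1, Etfb, Hadh and Hsd17b10 were no longer called and Ehhadh was. That mean ranged from -1.86 to -0.79 at 7 weeks, against -0.23 to 0.56 at 3 weeks. The median log2 difference at 7 weeks against 3 weeks was -0.48 over the 32 genes and 0.08 over all genes tested. By compartment, 11 of 19 mitochondrial genes fell, with a median of -0.53. None of the 8 peroxisomal genes was called (limma), with a median of -0.03, and at an unadjusted p under 0.05 the count was 2 lower and 0 higher. In 20 of the 32 genes all 7-week arrays lay below all 3-week arrays, as in 9.89% of all genes, and in 3 they lay above, as in 19.7%. The classes were set side by side and the difference between them was not tested, since genes are not replicates of a condition.

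**Figure D1:**
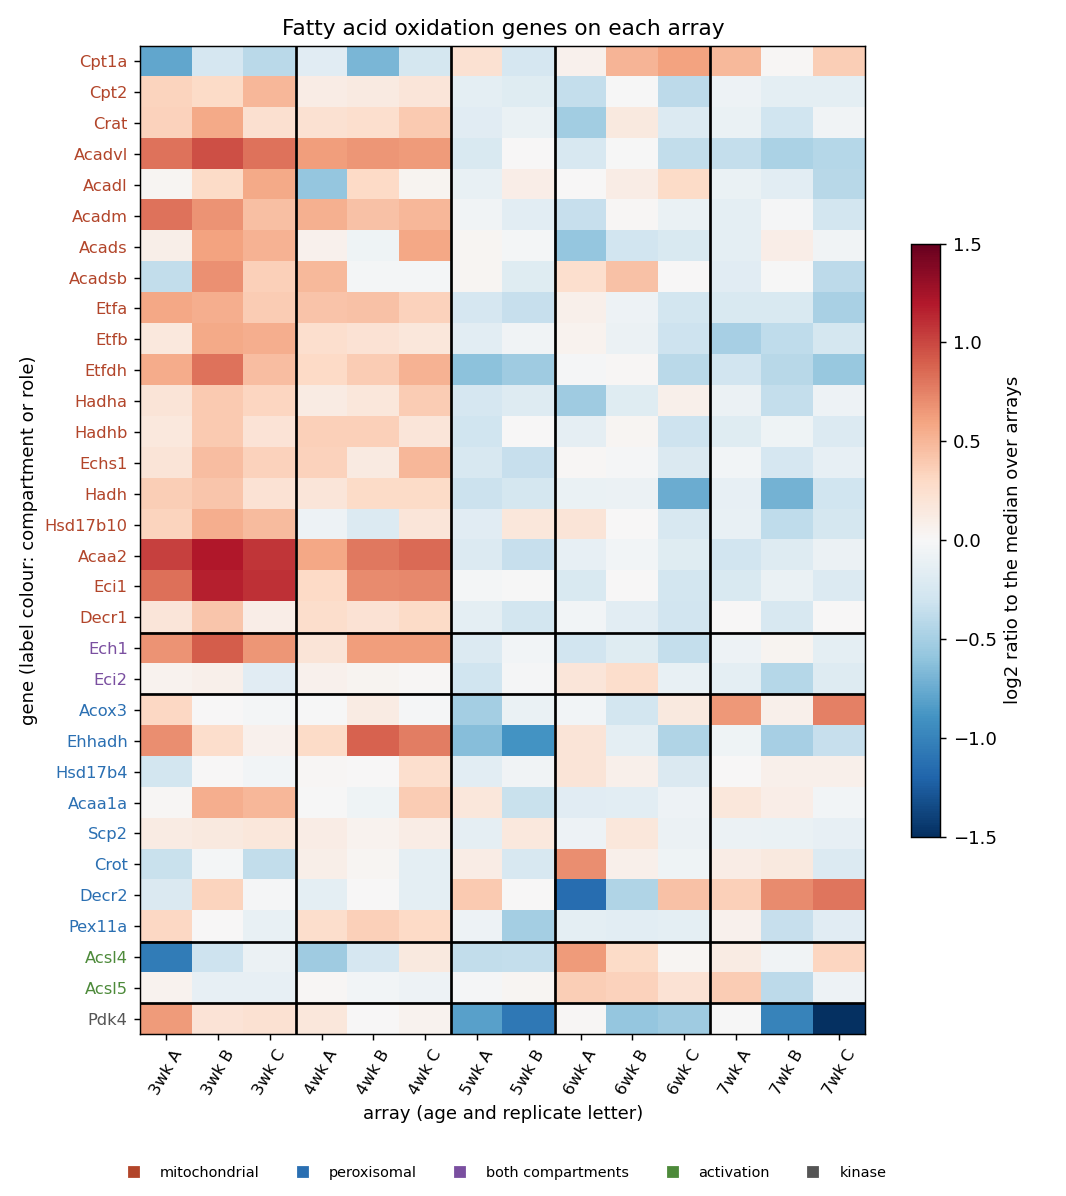
Heat map of the log2 ratio to the median over arrays (colour scale) of the 32 genes (rows, labels coloured by compartment or role) on each of the 14 arrays (columns, by age). Most mitochondrial rows are red on the arrays of 3 and 4 weeks and white or blue from 5 weeks on, with Cpt1a the other way round; peroxisomal rows are mixed.

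RNA was measured for Cpt1a and Cpt2, whose enzymes serve entry of fatty acids into mitochondria, and for Crat, another carnitine enzyme. Cpt1a, the carnitine palmitoyltransferase of the outer membrane and the regulated step of entry, had ratios of 0.583, 0.841 and 0.753 at 3 weeks, 0.886, 0.624 and 0.832 at 4 weeks, 1.17 and 0.840 at 5 weeks, 1.05, 1.43 and 1.52 at 6 weeks, and 1.40, 1.01 and 1.29 at 7 weeks. The 3-week mean was the lowest of the 5 ages, and neither the 6-week nor the 7-week values overlapped them. Cpt1a rose at 6 weeks against 3 weeks (log2 difference 0.87, SE 0.22, adjusted p = 0.0246), the single gene of the 32 called higher at that age, where 9.59% of all genes were. At 7 weeks against 3 weeks its log2 difference of 0.77 (SE 0.22, adjusted p = 0.0505) missed the threshold. The rise at 6 weeks was not called in 4 of 14 fits that left out 1 array each, those without 3wk array A, 3wk array C, 6wk array B or 6wk array C. It was also not called with the 5' to 3' actin ratio, a measure of RNA quality, as a covariate, nor without 6wk arrays A and B. The call was lost too where every probe set of a gene, fitted alone, had to be called in the same direction. Fitted alone, probe set 1460409_at was called at 7 weeks against 3 weeks (log2 difference 1.02, SE 0.22, adjusted p = 0.0155), whereas 1434866_x_at (log2 difference 0.90, SE 0.39, adjusted p = 0.188) and the dim 1438156_x_at (log2 difference 0.38, SE 0.25, adjusted p = 0.411) were not. At 6 weeks against 3 weeks, 1460409_at (log2 difference 1.26, SE 0.22, adjusted p = 0.00406) and 1438156_x_at (log2 difference 0.85, SE 0.25, adjusted p = 0.0451) were called alone. Probe set 1434866_x_at was not (log2 difference 0.51, SE 0.39, adjusted p = 0.416). The call of 1438156_x_at carries little weight. Its median signal was 116 rounding steps of the arrays, under the 200 steps used as the limit for low values. The filter kept a probe set that reached 200 steps on more than 1 array. It can thus keep one through its highest arrays alone, and the highest ratio of 1438156_x_at was 1.91 on 6wk array C. The Cpt1a average includes this probe set.

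Cpt2, the palmitoyltransferase of the inner membrane that turns the carnitine ester back into acyl-CoA, had ratios of 1.26, 1.22 and 1.41 at 3 weeks, 1.08, 1.10 and 1.13 at 4 weeks, 0.900 and 0.884 at 5 weeks, 0.779, 0.997 and 0.764 at 6 weeks, and 0.950, 0.904 and 0.903 at 7 weeks. Every array from 5 weeks on lay below every array of 3 and 4 weeks. Cpt2 fell at 7 weeks against 3 weeks (log2 difference -0.49, SE 0.12, adjusted p = 0.0268) and at 6 weeks (log2 difference -0.62, SE 0.12, adjusted p = 0.00732). Its 2 probe sets gave log2 differences of -0.84 and -0.14 at 7 weeks, and only the first was called. The call at 7 weeks was lost in 5 of 14 fits, without 3wk array A or C or any 1 of the 7-week arrays. It was also lost where every probe set, fitted alone, had to be called.

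Crat, the carnitine acetyltransferase that buffers acetyl-CoA in mitochondria, had ratios of 1.27, 1.49 and 1.18 at 3 weeks, 1.17, 1.19 and 1.31 at 4 weeks, 0.892 and 0.930 at 5 weeks, 0.699, 1.11 and 0.869 at 6 weeks, and 0.933, 0.814 and 0.968 at 7 weeks. Its arrays from 5 weeks on also lay below all arrays of 3 and 4 weeks. It fell at 6 weeks against 3 weeks (log2 difference -0.57, SE 0.16, adjusted p = 0.0412), whereas the log2 difference of -0.53 (SE 0.16, adjusted p = 0.0675) at 7 weeks was not called. The call at 6 weeks was lost in 12 of 14 fits that left out 1 array. Fitted alone, neither of its 2 probe sets was called at 6 weeks against 3 weeks. Probe set 1417008_at had a log2 difference of -0.78 (SE 0.25, adjusted p = 0.0592) and 1448544_at of -0.37 (SE 0.22, adjusted p = 0.290). Crot, the carnitine octanoyltransferase of peroxisomes, had ratios of 0.794, 0.983 and 0.773 at 3 weeks, 1.07, 1.02 and 0.907 at 4 weeks, 1.08 and 0.845 at 5 weeks, 1.62, 1.05 and 0.959 at 6 weeks, and 1.08, 1.10 and 0.867 at 7 weeks. They overlapped between the ages in all 7 comparisons, and its log2 difference of 0.26 (SE 0.20, adjusted p = 0.484) at 7 weeks against 3 weeks had a 95% confidence interval from -0.18 to 0.70.

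Of the long-chain acyl-CoA synthetases, which activate fatty acids before entry, neither measured gene was called in any comparison when its probe sets were averaged. Acsl4, which prefers arachidonate, had ratios of 0.484, 0.803 and 0.942 at 3 weeks, 0.690, 0.838 and 1.10 at 4 weeks, 0.774 and 0.782 at 5 weeks, 1.55, 1.22 and 1.02 at 6 weeks, and 1.09, 0.966 and 1.25 at 7 weeks. All of its 6-week and 7-week arrays stood above all 3-week arrays, yet its log2 difference of 0.80 (SE 0.26, adjusted p = 0.0614) at 6 weeks missed the threshold. Of its 3 probe sets, 1433531_at fitted alone was called at 7 weeks against 3 weeks (log2 difference 0.58, SE 0.16, adjusted p = 0.0454) and at 6 weeks against 3 weeks (log2 difference 0.66, SE 0.16, adjusted p = 0.0211), and the other two were not. Acsl5 had ratios of 1.04, 0.921 and 0.916 at 3 weeks, 1.01, 0.973 and 0.949 at 4 weeks, 0.990 and 1.02 at 5 weeks, 1.29, 1.27 and 1.16 at 6 weeks, and 1.30, 0.762 and 0.949 at 7 weeks. Its 6-week arrays were above the 3-week ones without overlap (log2 difference 0.37, SE 0.17, adjusted p = 0.167), and its 7-week values spread over a wider range than at any other age.

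The acyl-CoA dehydrogenases take the first electrons from the chain, each over a range of chain lengths. Acadvl, the very-long-chain enzyme bound to the inner membrane, had ratios of 1.76, 1.96 and 1.76 at 3 weeks, 1.54, 1.59 and 1.55 at 4 weeks, 0.852 and 1.0 at 5 weeks, 0.848, 0.999 and 0.772 at 6 weeks, and 0.783, 0.717 and 0.746 at 7 weeks. The lowest array of 3 and 4 weeks was well above the highest of the later ages. Acadvl fell at 7 weeks against 3 weeks (log2 difference -1.29, SE 0.12, adjusted p = 0.000121) and already at 5 weeks against 3 weeks (log2 difference -0.98, SE 0.14, adjusted p = 0.00349).

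Acadm, the medium-chain enzyme, had ratios of 1.76, 1.60 and 1.37 at 3 weeks, 1.45, 1.35 and 1.41 at 4 weeks, 0.964 and 0.895 at 5 weeks, 0.786, 1.01 and 0.932 at 6 weeks, and 0.903, 0.987 and 0.824 at 7 weeks. Its later arrays also lay wholly below those of 3 and 4 weeks, and it fell at 7 weeks against 3 weeks (log2 difference -0.80, SE 0.13, adjusted p = 0.00436). The short-chain enzyme Acads averaged 0.981 ± 0.0883 (SD, n = 3) at 7 weeks and 0.779 ± 0.0970 (SD, n = 3) at 6 weeks, against 1.34 ± 0.243 (SD, n = 3) at 3 weeks. It fell at 6 weeks (log2 difference -0.77, SE 0.19, adjusted p = 0.0224), was not called at 7 weeks (log2 difference -0.44, SE 0.19, adjusted p = 0.193), and lost the call at 6 weeks in 3 of 14 fits without 1 array. Acadsb, which acts on short branched chains, averaged 0.882 ± 0.118 (SD, n = 3) at 7 weeks, against 1.22 ± 0.420 (SD, n = 3) at 3 weeks, a difference smaller than the spread at 3 weeks.

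Acadl, the long-chain enzyme of mouse mitochondria, gave different answers by probe set. Its mean over both probe sets was 0.862 ± 0.0978 (SD, n = 3) at 7 weeks, against 1.24 ± 0.231 (SD, n = 3) at 3 weeks (log2 difference -0.51, SE 0.22, adjusted p = 0.177). Fitted alone, probe set 1448987_at fell (log2 difference -0.99, SE 0.11, adjusted p = 0.000542) in the fit of all probe sets. The second, 1448988_at, had a log2 difference of -0.04 with SE 0.38, and was the dimmer probe set. At 7 weeks against 3 weeks, 1 of 2 probe sets was likewise called alone for Decr1, Hadhb and Hsd17b10, and 2 of 3 for Hadh.

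The electron transfer flavoprotein carries electrons from all of these dehydrogenases. Its alpha subunit, Etfa, had ratios of 1.49, 1.46 and 1.30 at 3 weeks, 1.34, 1.36 and 1.27 at 4 weeks, 0.843 and 0.790 at 5 weeks, 1.05, 0.950 and 0.825 at 6 weeks, and 0.856, 0.851 and 0.716 at 7 weeks. Its beta subunit, Etfb, had ratios of 1.12, 1.48 and 1.45 at 3 weeks, 1.20, 1.16 and 1.13 at 4 weeks, 0.899 and 0.963 at 5 weeks, 1.04, 0.943 and 0.806 at 6 weeks, and 0.706, 0.765 and 0.834 at 7 weeks. Etfdh, the membrane oxidoreductase that passes the electrons on to ubiquinone, had ratios of 1.47, 1.76 and 1.38 at 3 weeks, 1.23, 1.30 and 1.43 at 4 weeks, 0.654 and 0.692 at 5 weeks, 0.988, 1.01 and 0.755 at 6 weeks, and 0.822, 0.749 and 0.675 at 7 weeks. For each of the 3 genes, all arrays of 5 to 7 weeks lay below all arrays of 3 and 4 weeks, and Etfdh was lowest at 5 weeks. At 7 weeks against 3 weeks, Etfa fell (log2 difference -0.81, SE 0.12, adjusted p = 0.00244), as did Etfb (log2 difference -0.81, SE 0.14, adjusted p = 0.00501) and Etfdh (log2 difference -1.03, SE 0.15, adjusted p = 0.00177).

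Hadha and Hadhb encode the alpha and beta subunits of the mitochondrial trifunctional protein, which hydrates, oxidises and cleaves long-chain intermediates. The genes lie head to head on chromosome 5 of GRCm38.p6, with start sites at 30154980 (Hadha, minus strand) and 30155253 (Hadhb, plus strand), 273 bases apart per RefSeq. The 228 bases common to both of RefSeq's promoter windows, chr5:30155003-30155230 on the plus strand, are shown because they lie between the starts of both subunits' genes. Capitals mark the single GGGCGG (GC box, searched on both strands), a motif present in 35.7% of 32851 mouse promoter windows and in 23 of the 28 of these genes with a window.
Hadha and Hadhb shared stretch: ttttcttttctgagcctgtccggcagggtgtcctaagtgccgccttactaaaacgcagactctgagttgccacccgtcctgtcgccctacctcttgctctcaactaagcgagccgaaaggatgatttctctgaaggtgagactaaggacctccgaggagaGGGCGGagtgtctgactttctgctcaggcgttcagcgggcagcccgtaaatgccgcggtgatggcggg

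Hadha had ratios of 1.15, 1.31 and 1.25 at 3 weeks, 1.09, 1.13 and 1.30 at 4 weeks, 0.840 and 0.877 at 5 weeks, 0.693, 0.883 and 1.05 at 6 weeks, and 0.942, 0.781 and 0.947 at 7 weeks. Hadhb averaged 0.902 ± 0.0498 (SD, n = 3) at 7 weeks, against 1.19 ± 0.103 (SD, n = 3) at 3 weeks. In both genes all arrays from 5 weeks on lay below all arrays of 3 and 4 weeks. Neither passed the adjusted test at 7 weeks against 3 weeks, with a log2 difference of -0.48 (SE 0.16, adjusted p = 0.0844) for Hadha and a log2 difference of -0.40 (SE 0.13, adjusted p = 0.0846) for Hadhb. The 95% confidence intervals ran from -0.82 to -0.13 for Hadha and from -0.69 to -0.11 for Hadhb.

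Shorter intermediates are handled by separate matrix enzymes. Echs1, the short-chain enoyl-CoA hydratase, had ratios of 1.15, 1.38 and 1.27 at 3 weeks, 1.27, 1.10 and 1.41 at 4 weeks, 0.849 and 0.784 at 5 weeks, 1.01, 0.987 and 0.860 at 6 weeks, and 0.969, 0.840 and 0.917 at 7 weeks. It fell at 7 weeks against 3 weeks (log2 difference -0.48, SE 0.13, adjusted p = 0.0422), a call lost in 10 of 14 fits without 1 array, although no later array reached the lowest of 3 and 4 weeks. Hadh, the hydroxyacyl-CoA dehydrogenase for medium and short chains, averaged 0.780 ± 0.155 (SD, n = 3) at 7 weeks, against 1.26 ± 0.0900 (SD, n = 3) at 3 weeks. It fell by the same test (log2 difference -0.71, SE 0.19, adjusted p = 0.0390), likewise lost in 10 of 14 such fits. Hsd17b10, a dehydrogenase of short branched chains and steroids, averaged 0.842 ± 0.0798 (SD, n = 3) at 7 weeks, against 1.37 ± 0.0980 (SD, n = 3) at 3 weeks (log2 difference -0.70, SE 0.16, adjusted p = 0.0175). Its 4-week mean was 0.983. The call of Hsd17b10 at 7 weeks was lost in 3 of 14 fits, those without 3wk array B, 7wk array B or 7wk array C. The gene did not pass the F test over the 5 ages (adjusted p = 0.0796).

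The thiolases close each round. Acaa2 is the thiolase of mitochondria. Its ratios were 2.03, 2.29 and 2.10 at 3 weeks, 1.49, 1.74 and 1.81 at 4 weeks, 0.869 and 0.789 at 5 weeks, 0.921, 0.971 and 0.882 at 6 weeks, and 0.818, 0.872 and 0.938 at 7 weeks. The 6 early arrays did not overlap the 8 later ones, and the 3-week arrays were all above the 4-week ones. Acaa2 fell at 7 weeks against 3 weeks (log2 difference -1.29, SE 0.11, adjusted p = 8.34e-05), and each of its 3 probe sets was called when fitted alone.

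Its peroxisomal counterpart, Acaa1a, had ratios of 1.01, 1.46 and 1.41 at 3 weeks, 0.996, 0.955 and 1.30 at 4 weeks, 1.13 and 0.795 at 5 weeks, 0.890, 0.896 and 0.947 at 6 weeks, and 1.13, 1.07 and 0.973 at 7 weeks. The 7-week and 3-week arrays overlapped, and the log2 difference of -0.28 (SE 0.18, adjusted p = 0.400) had a 95% confidence interval from -0.68 to 0.12. Acaa1a shares 2 further probe sets with the near-identical Acaa1b, and these were left out. The plot of enzyme pairs shows both thiolases on 1 scale.

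**Figure D2:**
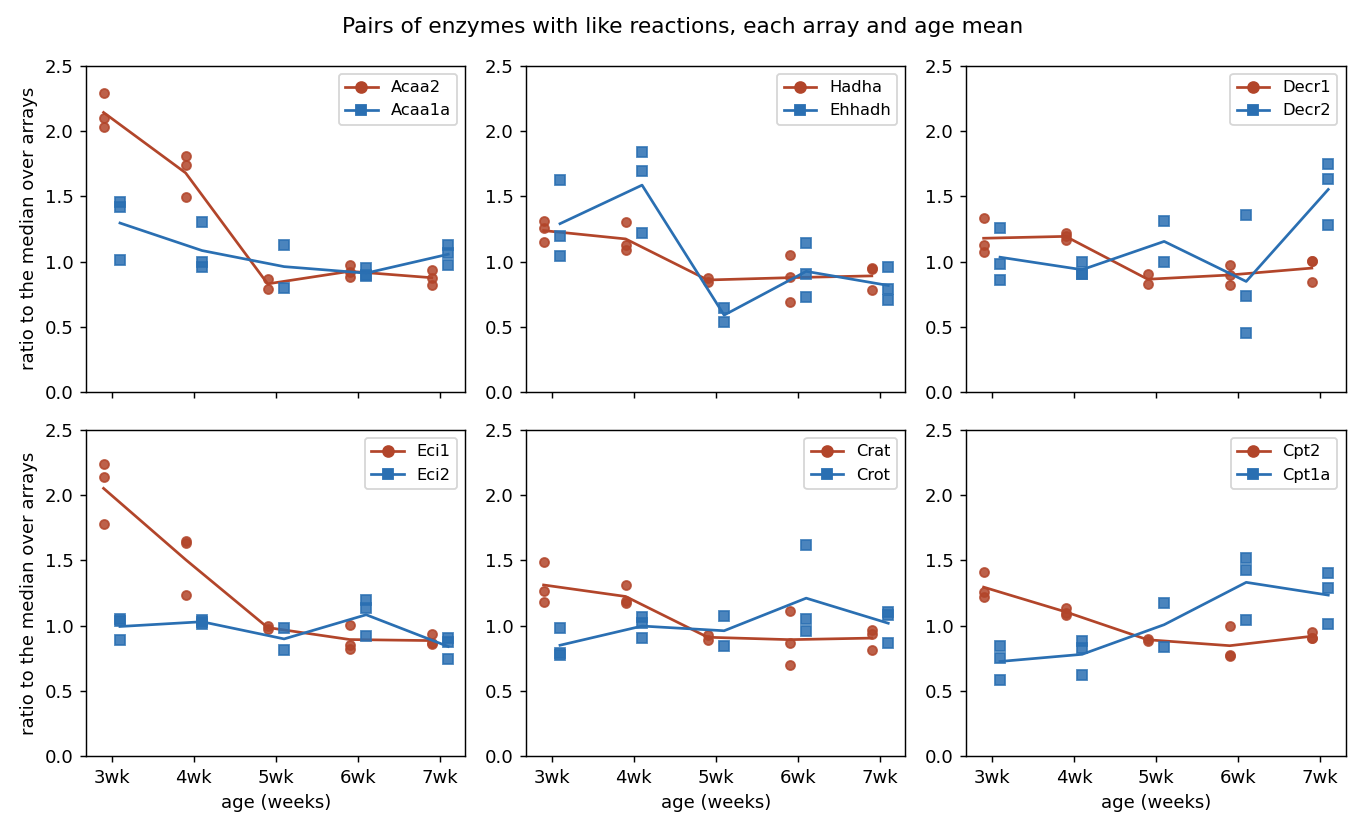
Ratio to the median over arrays (vertical axis, from 0) by age in weeks (horizontal axis) for 6 pairs of enzymes of like reaction; points are arrays and lines join the age means. Acaa2 and Eci1 average 2.14 and 2.05 at 3 weeks and below 1 at 5, 6 and 7 weeks, whereas Acaa1a and Eci2 stay between 0.744 and 1.46 throughout.

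Unsaturated fatty acids need isomerases and reductases as well. Eci1, the mitochondrial enoyl-CoA isomerase, had ratios of 1.78, 2.24 and 2.13 at 3 weeks, 1.23, 1.63 and 1.65 at 4 weeks, 0.976 and 0.995 at 5 weeks, 0.851, 1.0 and 0.825 at 6 weeks, and 0.856, 0.937 and 0.864 at 7 weeks. Eci2, an isomerase found in peroxisomes and mitochondria, had ratios of 1.03, 1.05 and 0.892 at 3 weeks, 1.04, 1.03 and 1.01 at 4 weeks, 0.812 and 0.985 at 5 weeks, 1.13, 1.20 and 0.922 at 6 weeks, and 0.904, 0.744 and 0.873 at 7 weeks. Eci1 fell at 7 weeks against 3 weeks (log2 difference -1.21, SE 0.15, adjusted p = 0.000645), and its 3-week arrays were all above its later ones. Eci2 was not called (log2 difference -0.24, SE 0.14, adjusted p = 0.325), and its 7-week and 3-week arrays overlapped.

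Ech1, a dienoyl-CoA isomerase found in both organelles, had ratios of 1.60, 1.87 and 1.58 at 3 weeks, 1.14, 1.54 and 1.54 at 4 weeks, 0.865 and 0.969 at 5 weeks, 0.819, 0.880 and 0.779 at 6 weeks, and 0.951, 1.03 and 0.901 at 7 weeks. Each of its arrays of 5 to 7 weeks lay below each of 3 and 4 weeks, and it fell at 7 weeks against 3 weeks (log2 difference -0.81, SE 0.14, adjusted p = 0.00516). Decr1, the mitochondrial dienoyl-CoA reductase, had ratios of 1.13, 1.33 and 1.07 at 3 weeks, 1.20, 1.16 and 1.22 at 4 weeks, 0.903 and 0.825 at 5 weeks, 0.971, 0.898 and 0.821 at 6 weeks, and 1.0, 0.847 and 1.0 at 7 weeks. Its later arrays lay below all early ones, but its log2 difference of -0.31 (SE 0.12, adjusted p = 0.152) at 7 weeks against 3 weeks was not called. Decr2, the peroxisomal reductase, had ratios of 0.858, 1.26 and 0.984 at 3 weeks, 0.905, 1.0 and 0.907 at 4 weeks, 1.31 and 1.0 at 5 weeks, 0.453, 0.734 and 1.35 at 6 weeks, and 1.28, 1.63 and 1.74 at 7 weeks. Its 7-week arrays were all above its 3-week arrays (log2 difference 0.59, SE 0.32, adjusted p = 0.298), and its 6-week arrays spread the most of any age.

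Among the peroxisomal genes, Ehhadh, the bifunctional hydratase and dehydrogenase, was the single one called over the 5 ages with probe sets averaged (adjusted p = 0.0198). Its ratios were 1.63, 1.20 and 1.04 at 3 weeks, 1.22, 1.84 and 1.70 at 4 weeks, 0.643 and 0.536 at 5 weeks, 1.14, 0.905 and 0.730 at 6 weeks, and 0.955, 0.707 and 0.788 at 7 weeks. The 5-week arrays were the lowest of all and the 4-week mean the highest. Ehhadh fell at 5 weeks against 4 weeks (log2 difference -1.41, SE 0.25, adjusted p = 0.0446), a call lost in 10 of 14 fits without 1 array. It also fell at 5 weeks against 3 weeks (log2 difference -1.11, SE 0.25, adjusted p = 0.0322), a call lost without 3wk array A or B, without 5wk array A or B, and with the actin ratio as a covariate. It was not called at 7 weeks against 3 weeks (log2 difference -0.65, SE 0.23, adjusted p = 0.107).

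Another 4 peroxisomal genes were not called in any comparison when their probe sets were averaged. Acox3, an oxidase of branched chains, averaged 1.44 ± 0.339 (SD, n = 3) at 7 weeks, against 1.08 ± 0.144 (SD, n = 3) at 3 weeks, with overlapping arrays (log2 difference 0.40, SE 0.20, adjusted p = 0.251). Hsd17b4, the second bifunctional enzyme of peroxisomes, averaged 1.04 ± 0.0300 (SD, n = 3) at 7 weeks, against 0.936 ± 0.0951 (SD, n = 3) at 3 weeks. Scp2, the thiolase of branched chains and a sterol carrier, averaged 0.934 ± 0.0116 (SD, n = 3) at 7 weeks, against 1.11 ± 0.0158 (SD, n = 3) at 3 weeks (log2 difference -0.25, SE 0.11, adjusted p = 0.208), and its 7-week arrays were all below its 3-week arrays. Pex11a, a membrane protein of peroxisome division, averaged 0.906 ± 0.131 (SD, n = 3) at 7 weeks, against 1.05 ± 0.164 (SD, n = 3) at 3 weeks. Fitted alone, its probe set 1449442_at was called at 6 weeks against 3 weeks (log2 difference -0.60, SE 0.15, adjusted p = 0.0256). That probe set also passed the F test over the 5 ages (adjusted p = 0.0450). Its other probe set, 1419365_at, was not called at 6 weeks against 3 weeks (log2 difference 0.16, SE 0.23, adjusted p = 0.682). In the limma fit of the 7 comparisons of ages, at an unadjusted p under 0.05 all 8 peroxisomal genes gave between 0 and 2 calls in each direction per comparison.

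Pdk4, which phosphorylates pyruvate dehydrogenase and so spares glucose when fat is burned, averaged 0.604 ± 0.350 (SD, n = 3) at 7 weeks, against 1.29 ± 0.226 (SD, n = 3) at 3 weeks. It fell (log2 difference -1.25, SE 0.33, adjusted p = 0.0390), with 7-week arrays at 0.994, 0.501 and 0.317 and 3-week arrays at 1.55, 1.15 and 1.18. The 7-week arrays thus spread more than those of any other age, and the call was lost in 11 of 14 fits without 1 array.

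**Figure D3:**
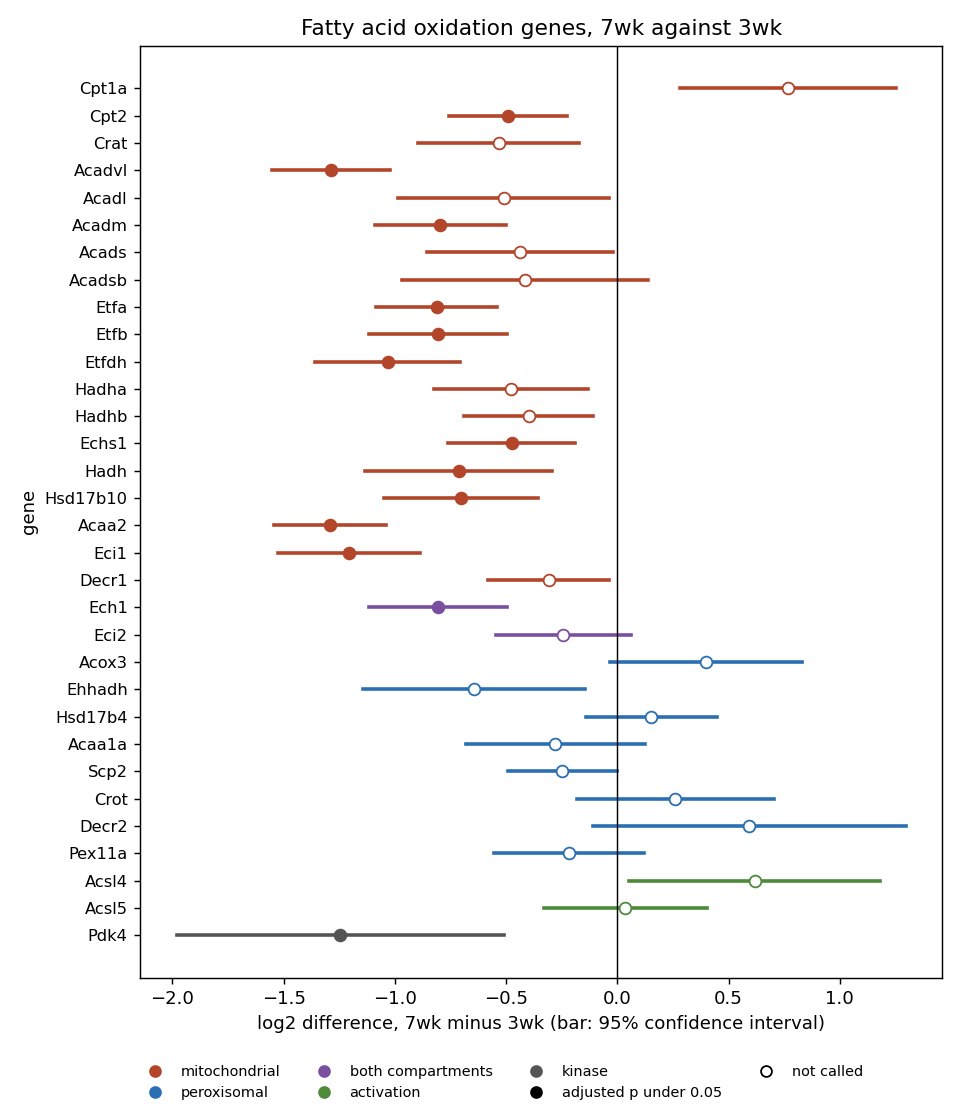
Log2 difference at 7 weeks minus 3 weeks (horizontal axis) of each of the 32 genes, with 95% confidence intervals; filled points passed the adjusted test and open points did not. The 13 filled points all lie left of 0, 11 of them mitochondrial; the peroxisomal points lie on both sides.

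Between neighbouring ages, the median log2 difference of the 19 mitochondrial genes was -0.16 at 4 weeks against 3 weeks, -0.45 at 5 against 4, 0.01 at 6 against 5 and -0.07 at 7 against 6. That of the 8 peroxisomal genes was 0.07 at 4 weeks against 3 weeks, -0.19 at 5 against 4, 0.13 at 6 against 5 and 0.02 at 7 against 6. At 4 weeks against 3 weeks, 0 of the 32 genes were called lower and 0 higher (limma), where 0.00925% and 0.167% of all genes were. At an unadjusted p under 0.05 there were 3 lower and 0 higher, and the median of the 32 genes was -0.09. At 5 weeks against 4 weeks, 4 of the 32 genes fell, where 0.222% of all genes did, and 0 rose, where 0.194% did. These were Acaa2 (log2 difference -1.01, SE 0.13, adjusted p = 0.0113), Acadvl, Etfdh and Ehhadh, and the median of the 32 genes was -0.38. Differences were negative in 16 of the 19 mitochondrial and 7 of the 8 peroxisomal genes, and in 5408 of all 10807. All 5-week arrays lay below all 4-week arrays in 14 of the 19 mitochondrial and 4 of the 8 peroxisomal genes, as in 17.1% of all genes. The mean at 5 weeks rests on 2 arrays, and the fit gives all ages 1 estimate of the spread. Without 5wk array B there were 0 such calls. There was 1 without 4wk array B or C, 5wk array A, or 7wk array A or B, and there were 2 without 3wk array B or C, 4wk array A or 7wk array C. The count of 4 became 1 with no filter on low values, 1 with the hybridisation spikes and 1 with the actin ratio as a covariate. The log2 actin ratio ranged from -0.26 to -0.16 at 5 weeks, against 0.10 to 0.28 at 4 weeks.

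At 5 weeks against 3 weeks, 10 of the 32 genes fell, where 1.54% of all genes did, and 0 rose, where 2.92% did. The count of 10 became 3 without 5wk array A and 4 without 5wk array B. At 6 weeks against 3 weeks, 12 fell, where 4.22% of all genes did. In 20 genes all 6-week arrays lay below all 3-week arrays and in 3 above, as in 11.6% and 21.0% of all genes. After 5 weeks no further step was called. At 6 weeks against 5 weeks 0 of the 32 genes were called (limma), where 0.00% of all genes were called in either direction, and at an unadjusted p under 0.05 there were 0 lower and 3 higher. At 7 weeks against 6 weeks 0 were called, where 0.0648% of all genes fell and 0.287% rose, and at an unadjusted p under 0.05 there were 1 lower and 2 higher. Comparisons with 3 weeks share the same 3 arrays and are not independent of each other.

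A split chosen after the values were seen set the 6 arrays of 3 and 4 weeks against the 8 later ones. In 15 of the 32 genes all later arrays lay below all earlier ones, and in 0 above, where 2.26% and 3.42% of all genes did so. They were 14 of the 19 mitochondrial genes and Ech1. None of the 8 peroxisomal genes separated in this way. The 5 mitochondrial genes that did not were Cpt1a, Acadl, Acads, Acadsb and Hsd17b10. By age means, 16 of the 19 mitochondrial genes were highest at 3 weeks, 2 at 4 weeks and 1, Cpt1a, at 6 weeks. The highest age of the 8 peroxisomal genes was 3 weeks in 2, 4 weeks in 3, 6 weeks in 1 and 7 weeks in 2.

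As a description, the mean log2 ratio of the 19 mitochondrial genes was -0.14, -0.23 and -0.21 on the 7-week arrays, against 0.31, 0.56 and 0.43 on the 3-week arrays. That of the 8 peroxisomal genes was 0.15, 0.02 and 0.09 on the 7-week arrays, against 0.08, 0.16 and 0.02 on the 3-week arrays. The mitochondrial mean minus the peroxisomal mean was 0.23, 0.40 and 0.42 at 3 weeks, 0.15, 0.06 and 0.15 at 4 weeks, -0.06 and 0.09 at 5 weeks, -0.07, 0.13 and -0.13 at 6 weeks, and -0.29, -0.25 and -0.30 at 7 weeks. It was below 0 on every 7-week array and above 0 on every 3-week array. The peroxisomal mean at 7 weeks includes the high ratios of Decr2 and Acox3, which were not called. Over the 14 arrays, Pearson's r with the mitochondrial mean, to which each mitochondrial gene itself contributes, was 0.97 for Acaa2 and Acadvl. It was 0.49 for Acadsb, 0.40 for Acadl and -0.68 for Cpt1a. Among the peroxisomal genes it was 0.75 for Scp2, 0.73 for Ehhadh, 0.65 for Acaa1a and 0.60 for Pex11a. For the other peroxisomal genes it was 0.03 for Hsd17b4, -0.13 for Acox3, -0.23 for Decr2 and -0.38 for Crot. Arrays of 1 age share their age in these coefficients.

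**Figure D4:**
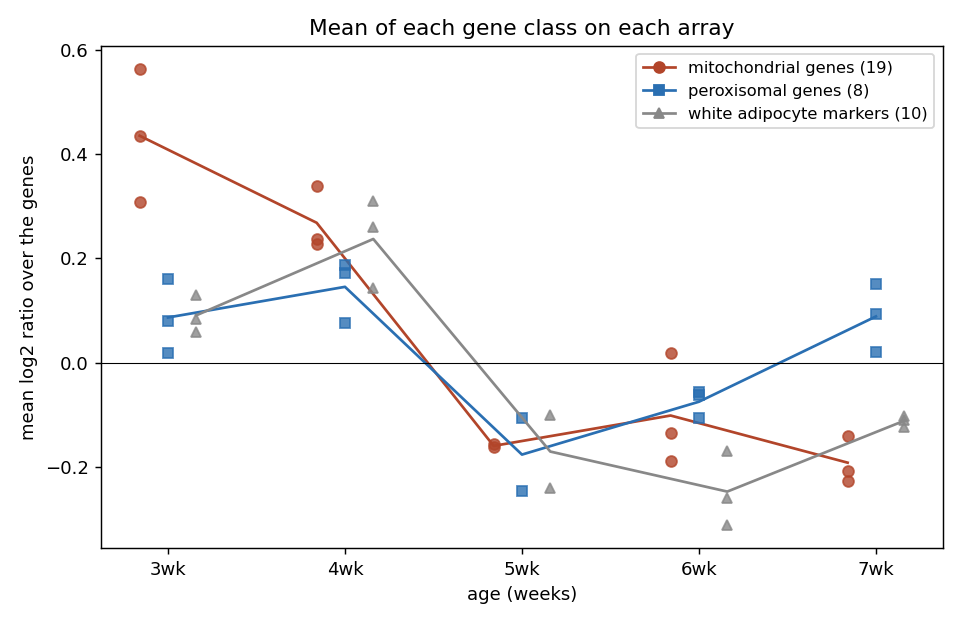
Mean log2 ratio (vertical axis) of the 19 mitochondrial genes, the 8 peroxisomal genes and 10 white adipocyte marker genes on each array, by age in weeks; lines join the age means. The mitochondrial mean is highest at 3 weeks and below 0 on all 5-week and 7-week arrays, the peroxisomal mean is below 0 at 5 and 6 weeks and above 0 at 3, 4 and 7 weeks, and the marker mean is highest at 4 weeks. The peroxisomal genes with the highest mean ratios at 7 weeks are Decr2 and Acox3, neither of them called.

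Markers of the cell types of the gland moved over the same ages. Of 10 measured white adipocyte markers, 3 fell at 7 weeks against 3 weeks (Adipoq, Fabp4 and Lpl), with a median log2 difference of -0.30. Differences were negative in 8 of the 10 markers and positive in 2, the largest at 0.77. At an unadjusted p under 0.05 (limma), 4 were lower and 1 was higher. The mean log2 ratio of the 10 markers ranged from -0.12 to -0.10 at 7 weeks, against 0.06 to 0.13 at 3 weeks. Of 10 measured brown adipocyte markers, 6 fell, namely Ucp1, Cidea, Cox7a1, Cox8b, Pank1 and Ebf2, and 1, Slc29a1, rose, with a median of -0.84. Ucp1, the uncoupling protein that defines brown fat, had a log2 difference of -3.01 (SE 0.58, adjusted p = 0.00822). The brown adipocyte mean ranged from -0.49 to 0.05 at 7 weeks, against 0.60 to 0.88 at 3 weeks.

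All 9 measured luminal epithelium markers rose, with a median of 2.15 and a mean that ranged from 0.34 to 0.47 at 7 weeks, against -2.50 to -1.49 at 3 weeks. Of 8 basal epithelium markers 4 rose, and of 6 skeletal muscle markers 0 were called (limma), with 1 lower and 0 higher at an unadjusted p under 0.05. Of 5 macrophage markers 1 rose, with a median of 0.39. Of 6 endothelium markers 1 rose, although the median was -0.22 and 4 of the 6 differences were negative. Of 6 lymphocyte markers 0 were called (limma), with 0 lower and 0 higher at an unadjusted p under 0.05. The lowest ratio in the deposited table was 0.01. A ratio above 0 does not show that a marker was expressed on an array. The part of these cell types in the differences of the 32 genes was not tested. Array quality also moved with age. The log2 ratio of 5' to 3' actin probe sets ranged from -0.79 to -0.08 at 6 weeks, against -0.06 to 0.18 at 3 weeks, and with it as a covariate 6 in place of 12 of the genes fell at 6 weeks against 3 weeks. Acadm, Acads, Crat, Etfa, Etfb and Hadh were those no longer called. The log2 5' to 3' ratio of pyruvate carboxylase probe sets ranged from -1.25 to -0.66 at 5 weeks, from -2.78 to -1.81 at 6 weeks and from 0.76 to 0.90 at 7 weeks, against -0.66 to 0.32 at 3 weeks. Its part in the differences was not tested.

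Of 67 further genes of the pathway and its regulators, 53 were tested. At 7 weeks against 3 weeks, 15 of the 53 fell and 2 rose, with a median log2 difference of -0.21. Ppara, the nuclear receptor that induces many fatty acid oxidation genes, averaged 0.432 ± 0.0874 (SD, n = 3) at 7 weeks, against 7.94 ± 3.04 (SD, n = 3) at 3 weeks (log2 difference -4.15, SE 0.33, adjusted p = 7.78e-05). Fabp3, a cytosolic fatty acid carrier, averaged 0.698 ± 0.297 (SD, n = 3) at 7 weeks, against 11.6 ± 2.37 (SD, n = 3) at 3 weeks (log2 difference -4.11, SE 0.34, adjusted p = 7.98e-05). These differences were larger than that of any of the 32 genes. Acot1, a thioesterase that frees fatty acids from CoA, went the other way and averaged 1.72 ± 0.362 (SD, n = 3) at 7 weeks, against 0.260 ± 0.0101 (SD, n = 3) at 3 weeks (log2 difference 2.70, SE 0.24, adjusted p = 8.99e-05).

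Nrip1, a corepressor of nuclear receptors, fell (log2 difference -1.07, SE 0.17, adjusted p = 0.00263), as did Acat1, the mitochondrial acetoacetyl-CoA thiolase (log2 difference -0.89, SE 0.11, adjusted p = 0.000911). Acad9, an acyl-CoA dehydrogenase that also serves complex I assembly, fell at 5 weeks against 4 weeks. It averaged 0.613 ± 0.0158 (SD, n = 2) at 5 weeks, against 1.21 ± 0.114 (SD, n = 3) at 4 weeks (log2 difference -0.98, SE 0.12, adjusted p = 0.0113), and its mean was 0.999 at 7 weeks, against 1.09 at 3 weeks. Of all genes tested outside the 32, the 5 whose ratios were most like the mitochondrial mean over the 14 arrays were Acat1, Ndufa9, Tspo, Cox7a1 and Ppa1, with Pearson's r from 0.968 to 0.977. Their log2 differences at 7 weeks against 3 weeks ranged from -3.33 for Cox7a1 to -0.49 for Tspo.

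Of the 32 genes, 28 had a promoter window in RefSeq's table (GRCm38.p6), from 250 bases before to 50 after the gene start, the exceptions being Acaa2, Hsd17b4, Decr1 and Crat. The windows were searched on both strands for AGGTCANAGGTCA, the direct repeat bound by the PPAR nuclear receptors with RXR. No window held it exactly or with 1 mismatch. With 2 mismatches allowed it was found in Echs1 and Etfa, 7.14% of the 28 windows, against 3.86% of all 32851. The single repeat AGGTCA, which lies within the longer motif, was found in 5 of the 28 windows (17.9%), against 16.3% of all. They were Acadm, Acadvl, Cpt1a, Echs1 and Scp2. The motif TNAAGGTCA, bound by estrogen-related receptors, was in 0 of the 28 windows and in 1.28% of all. A match is a description of these letters and not a binding site.

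The windows of Echs1, Acadvl and Cpt1a are shown because they hold the repeat in genes with calls of opposite direction. Against 3 weeks, Acadvl was called lower at 5, 6 and 7 weeks, and Cpt1a was called higher at 6 weeks only. Each is printed 5′ to 3′ on the gene's own strand. For Echs1 (chr7:140116372-140116671, minus strand) capitals mark the direct repeat with 2 mismatches, which begins at position -83 from the gene start. For Acadvl (chr11:70015379-70015678, minus strand) capitals mark AGGTCA at -87. For Cpt1a (chr19:3323051-3323350, plus strand) they mark its reverse complement, TGACCT, at -94.
Echs1: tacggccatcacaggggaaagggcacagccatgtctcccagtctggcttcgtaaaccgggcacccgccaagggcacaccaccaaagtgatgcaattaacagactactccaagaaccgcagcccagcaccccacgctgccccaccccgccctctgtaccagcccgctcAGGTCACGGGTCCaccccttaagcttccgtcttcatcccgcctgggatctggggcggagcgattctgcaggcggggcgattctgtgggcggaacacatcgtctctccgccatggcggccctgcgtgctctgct
Acadvl: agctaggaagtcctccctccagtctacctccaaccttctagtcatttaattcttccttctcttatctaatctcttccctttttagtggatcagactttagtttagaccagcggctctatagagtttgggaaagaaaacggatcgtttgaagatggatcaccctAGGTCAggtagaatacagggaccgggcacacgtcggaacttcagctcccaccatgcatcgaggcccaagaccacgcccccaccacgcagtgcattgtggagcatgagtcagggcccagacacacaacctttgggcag
Cpt1a: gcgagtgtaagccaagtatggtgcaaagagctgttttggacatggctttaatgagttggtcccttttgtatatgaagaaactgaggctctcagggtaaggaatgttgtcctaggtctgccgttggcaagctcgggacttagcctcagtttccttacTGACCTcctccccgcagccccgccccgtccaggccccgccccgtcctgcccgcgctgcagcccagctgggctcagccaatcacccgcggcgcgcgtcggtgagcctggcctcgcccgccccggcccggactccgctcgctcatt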

How the data were processed

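The deposited value table holds, per the values themselves, 1 ratio per probe set and array: 98.5% of 22690 probe sets had a median of 1 over the 14 arrays (within 0.001), which is what values divided by their probe set's median give, so the deposited unit was read as that ratio. Labelled RNA was hybridised to Affymetrix arrays, per the labels' protocols; the sources used here do not give the software behind the signals or its scaling, and scanner files were not used here. Array medians ran from 0.953 to 1.017, and no 2 arrays were identical. The coarseness of the ratios gave back the signal of dim probe sets as whole multiples of a step of each array, and 3883 probe sets under 200 steps on all arrays, or all but 1, were left out, none of them a probe set of the 32 genes. Kept probe sets with a median signal under 200 steps included 1438156_x_at of Cpt1a (116), 1448988_at of Acadl (163) and 1451828_a_at of Acsl4 (170). Probe sets were named where the platform annotation gave 1 symbol (20380, against 691 with several), of which 20364 matched RefSeq.

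Log2 ratios were averaged over the probe sets of a gene and fitted with limma 3.58.1 in R 4.3.3 as 1 mean per age over all 14 arrays, with no covariate. Tests were the moderated F test over the 5 ages and 7 two-sided contrasts, each with Benjamini-Hochberg adjustment over the 10807 genes tested; the code was tested on simulated data. Groups came from the sample titles. Array values are printed for the genes called by the F test and for pairs of enzymes of like reaction, and other members by age means. The gene list, its classes, the markers and the tests were chosen with earlier results of these data known. Alternatives were centring, quantile normalization, no filter, an offset of 0.1, probe sets fitted singly, control spikes or the actin ratio as a covariate, arrays left out, and the replicate letter as a block. Tables were handled with Python 3.11.15, pandas 2.3.3 and numpy 2.4.6, and figures drawn with matplotlib 3.10.9. The number of arrays limits the precision.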

Additional observations from a re-analysis of the deposited data

How the results depend on the processing

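No called gene reversed its direction in any alternative run. The count of 11 genes that differed over the 5 ages ranged from 8 to 13 in the fits that left out 1 array each, and from 8 with the hybridisation spikes as a covariate to 15 with centred arrays. The 13 genes lower at 7 weeks against 3 weeks became 7 with the spikes as a covariate and ranged from 8 to 14 without 1 array. The 12 lower at 6 weeks became 6 with the actin ratio as a covariate and ranged from 8 to 11 without 1 array. The 10 lower at 5 weeks against 3 weeks ranged from 3 to 10 without 1 array. The 4 lower at 5 weeks against 4 weeks became 1 with no filter on low values, 1 with the spikes and 1 with the actin ratio as a covariate, and ranged from 0 to 5 without 1 array. The 1 gene higher at 6 weeks against 3 weeks, Cpt1a, became 0 with the actin ratio as a covariate, 0 without 6wk arrays A and B, and 0 where every probe set had to pass, and ranged from 0 to 1 without 1 array. With an offset of 0.1 there was 1 gene higher at 7 weeks against 3 weeks, and without 1 array 0 to 1, as at 7 weeks against 6 weeks. The cause of these changes was not tested. The labels do not say what the replicate letters mean. Deviations of arrays with the same letter correlated from -0.07 to 0.08 (26 pairs), and those of different letters from -0.09 to 0.08 (52 pairs). These values show no strong shared deviation by letter, but they cannot decide whether the letters mark a pairing or a batch. With the letter as a replicate block, 11 genes differed over the ages, 12 were lower at 7 weeks, 12 at 6 weeks and 9 at 5 weeks against 3 weeks, and 2 at 5 weeks against 4 weeks.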
